A study of Homo sapiens with 4 samples.

Results

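The genes described here encode 9 amino acid transporter subunits of the plasma membrane: SLC7A5, SLC3A2, SLC7A11, SLC7A1, SLC7A6, SLC1A4, SLC1A5, SLC38A1 and SLC38A2. They were taken by name from 18774 genes on the array, each through its brightest probe, and all 9 were among the 13755 genes whose mean signal exceeded the median of all probes (75.6). SLC7A5 was chosen by its measured signal, which was far lower on 1 siRNA array (1#, below) than on the control arrays, and the other 8 were chosen as transporters of the same kind with earlier results of these data known. The study measured total RNA of HEK293 cells, a human embryonic kidney line, at 24 h on 4 Illumina Human-6 bead arrays of 1 colour. A pair of arrays, called 1# and 2# as in the labels, held RNA of cells transfected with siRNA against MIF, the gene of macrophage migration inhibitory factor. Of the other arrays, 1 held RNA of cells given a control RNA and 1 RNA of untreated cells. The series text gives Lipofectamine transfection and siRNA doses of 50 and 100 pmol/ml, the label of 2# gives 50 pmol/ml, and that of 1# gives none. It is not stated whether 1# and 2# were the same siRNA or separate cultures, so p-values measure only the spread between these arrays. All groups share the cell line and the time point, and the untreated cells received no transfection.

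Cells take up amino acids through carriers of several kinds, some of which exchange one amino acid for another and some of which couple uptake to sodium. SLC7A5 (LAT1) is a light chain that exchanges large neutral amino acids such as leucine, usually against glutamine, and it reaches the plasma membrane bound to the heavy chain SLC3A2 (CD98). SLC7A11 (xCT), which exports glutamate for cystine, and SLC7A6, which exchanges arginine for neutral amino acids, use the same heavy chain, whereas SLC7A1 (CAT-1) carries arginine and lysine without one. SLC1A4 (ASCT1) and SLC1A5 (ASCT2) exchange small neutral amino acids, and SLC38A1 and SLC38A2 accumulate glutamine and other neutral amino acids with sodium. Several of these genes are known to be induced through the transcription factor ATF4 when amino acids are scarce.

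MIF, the siRNA target, had a normalized signal of 11614 in 1# and 17040 in 2#, against 22463 with control RNA and 21908 without treatment. Both siRNA arrays were thus below both control arrays for the targeted gene, as they were for 28.7% of all genes. In 1# the signal was 51.7% of control RNA and 53% of untreated, and in 2# 75.9% and 77.8%. The mean difference did not pass the test (-0.66 ± 0.177, SE, log2, limma adjusted p 0.0744). Median deposited intensities of the 4 arrays lay between 71.9 and 78.5. Of 12 kidney and HEK293 markers with a probe, 11 passed the signal filter. The brightest, NEFL, KRT8, KRT18 and VIM, were at or above 2504 on every array. PAX2 did not pass, PAX8 lay between 86.8 and 95.3, and NEFM and INA had mean signals of 107.6 and 97.2. Of these 11, 2 were lower and 4 higher without overlap between siRNA and control arrays. Furthest from the controls were EYA1 (222.3 and 151.9 in 1# and 2#, against 103.5 with control RNA and 112.4 without treatment) and SIX2 (114.0 and 102.8, against 75.3 and 80.2). Of 11 markers of other cell types, 6 passed, and the summed signal of all 11 was 1185 and 1117 in 1# and 2# against 1104 and 1125 in control RNA and untreated cells. CD3E, CD14, HBB, CDH5 and ALB did not pass the filter. The 6 that passed were split into 3 lower and 3 higher without overlap between siRNA and control arrays. Among all genes kept by the filter, 28.7% were lower and 32.6% higher in that way. Of the fibroblast collagens, COL3A1 was higher (257.4 and 134.0 in 1# and 2#, against 105.1 and 105.4) and COL1A1 lower (232.4 and 304.0, against 322.7 and 340.7). Their part in the results below was not tested. In bulk RNA of this kind, fewer cells of a type and less RNA per cell cannot be told apart.

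The stretches around the start sites of the members were searched for the sequences that ATF4, MYC and NRF2 are known to bind. RefSeq windows of GRCh38.p14, running from 250 bases before to 50 bases after a start site, were at hand for 8 of the 9 genes, 14 windows in all. The motifs were the amino acid response element (TGATGNAAN), the E-box (CACGTG) and the antioxidant response element (TGACNNNGC), each on both strands, and no matches overlapped each other. The response element stood in 5 of the 14 windows against 3.61% of all 35116 windows, the E-box in 2 against 7.26%, and the antioxidant element in 5 against 13.3%. The matches to the amino acid response element and the E-box of SLC7A5 are shown, 5′ to 3′ on the gene's strand with the motif in capitals; in SLC3A2 and SLC1A4 the response element reads on the opposite strand:
SLC3A2 response element, chr11:62881720-62881748, plus strand: taatgtgcaggactcCTTACATCAgctcc
SLC7A1 response element, chr13:29595663-29595691, minus strand: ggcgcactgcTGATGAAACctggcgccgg
SLC1A4 response element, chr2:64989381-64989409, plus strand: gcggctcccgTTTGCATCAtctccagccg
SLC1A5 response element, chr19:46784893-46784921, minus strand: aggaagtggcTGATGCAAGctgtccaggg
SLC38A1 response element, chr12:46266502-46266530, minus strand: cagacccgaaTGATGAAAAgggatcagct
SLC7A5 E-box, chr16:87869619-87869647, minus strand: ccggacgacgCACGTGctccgagctgggc
Such a match describes letters in the window and is neither a binding site nor a cause. The 5 genes with the response element were lower (SLC3A2, SLC7A1, SLC1A5), higher (SLC1A4) or without a common direction (SLC38A1) in the siRNA arrays, as described next.

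Setting both siRNA arrays against both control arrays addressed how transporter transcripts stood after MIF siRNA. SLC7A5, SLC3A2, SLC7A11, SLC7A1 and SLC1A5 had lower signals in both siRNA arrays than in both control arrays, and SLC7A6, SLC1A4 and SLC38A2 had higher ones. Of all genes tested, 28.7% were lower and 32.6% higher without overlap between the groups, together 61.4%, so the lack of overlap alone does not set these 8 genes apart. The direction within the set divided by neither heavy chain partnership nor family: SLC7A6 was higher while SLC7A5 and SLC7A11 were lower, and SLC1A4 was higher while SLC1A5 was lower. SLC7A5 alone was at least 1.5-fold from the controls in all 4 pairs of a siRNA and a control array, a rule met on the lower side by 0.4% of all genes and on the higher side by 0.742%. As 2 of those 4 pairs hold the 1# signal that chose SLC7A5, nothing is read from that share. No member passed limma's test (2 arrays against 2, Benjamini-Hochberg adjusted p under 0.05), and 0% of all genes did. At an unadjusted p under 0.05 stood 29.7% of all genes (12.7% lower, 17% higher) and 7 of the 8 members tested, 4 lower and 3 higher. Both siRNA arrays of each of those 7 lay on the same side of both controls. Leaving out either siRNA array could therefore not turn their direction, and nothing is read from its constancy. Their log2 differences lay between -0.89 (SLC7A11) and 0.67 (SLC38A2) without 2#, and between -0.66 (SLC7A11) and 0.49 (SLC7A6) without 1#. SLC7A5 was not tested, because its signal on 1# chose it.

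**Figure D1:**
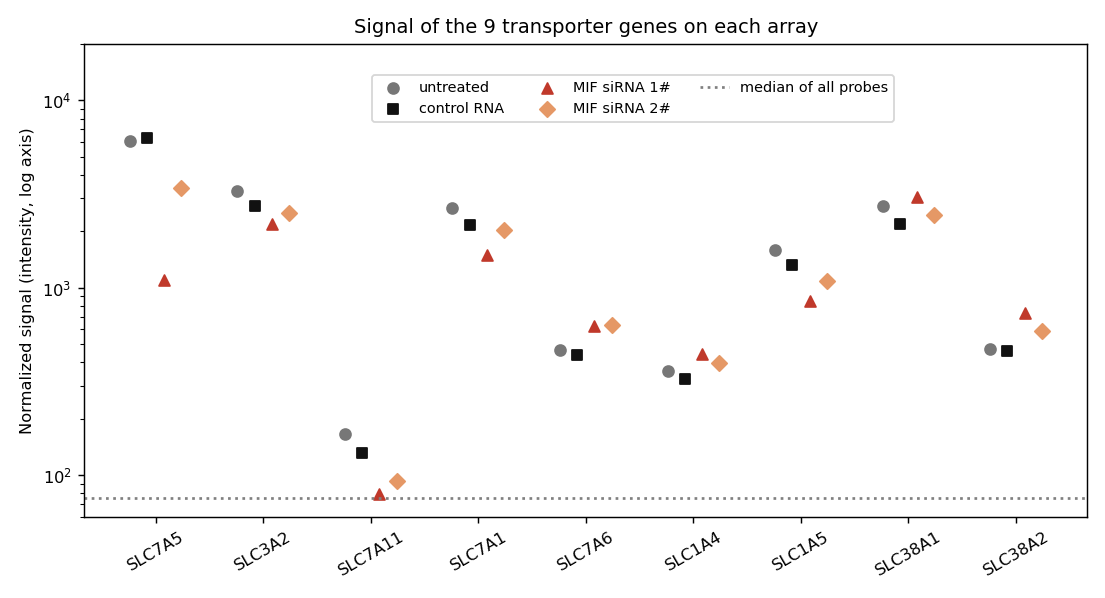
Normalized signal of the 9 genes (log axis) on each of the 4 arrays, with 1 point per array, and the median of all probes as a dotted line. SLC7A5 stands at 6322 and 6054 in the control arrays, 3404 in 2# and 1106 in 1#, while SLC7A11 reaches 79.5 in 1#, near the line; points of different genes come from different probes and are not to be ranked against each other.

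SLC7A5, the leucine exchanger, had a signal of 1106 on array 1#, 3404 on array 2#, 6322 with control RNA and 6054 without treatment. The control arrays were nearly equal, 2# was below them and 1# was far below 2#. In 1# the signal was 17.5% of control RNA and 18.3% of untreated, and in 2# it was 53.9% and 56.2%. The log2 differences from control RNA and untreated were -2.51 and -2.45 in 1# and -0.89 and -0.83 in 2#, with a mean of -1.67 over both arrays and both controls. That mean was -0.86 without 1# and -2.48 without 2#. These values chose the gene in 1# and are given as a description. Ranked from the most negative difference among 13755 genes, SLC7A5 was number 4 against control RNA and 3 against untreated in 1#, and 15 and 14 in 2#, which shares those controls. The siRNA arrays themselves were 3.08-fold apart, a gap that holds the 1# signal that chose the gene and is likewise only a description. Control RNA differed from untreated by 0.06 on the log2 scale. The gene has 1 probe on the array. The pseudogene SLC7A5P2, added after its values were seen, had signals between 73.1 and 82.4 through its own probe, near the median of all probes.

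SLC3A2, the heavy chain that carries SLC7A5 to the membrane, was lower in the siRNA arrays by much less than its partner. Its brightest probe gave 2175 in 1# and 2496 in 2#, against 2746 with control RNA and 3271 without treatment. Both siRNA arrays were below both controls, but 2# and control RNA were only 1.1-fold apart. The mean difference was -0.36 ± 0.122 (SE, log2, n = 2 and 2, limma adjusted p 0.113). The dimmer probe gave 595.5 and 730.2 in 1# and 2# against 1068 with control RNA and 946.9 without treatment. Both probes placed the siRNA arrays lowest, and they disagreed on the controls, since control RNA was 0.25 below untreated by the brighter probe and 0.17 above it by the dimmer one (log2).

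SLC7A11, the cystine exchanger, was lower in both siRNA arrays but close to the lower end of what the array resolves. Its signals were 79.5 in 1# and 92.9 in 2#, against 130.7 with control RNA and 165.2 without treatment. The 1# value lies near the median of all probes, and these intensities still hold background, which understates differences of dim genes. The difference was -0.77 ± 0.141 (SE, log2, limma adjusted p 0.0515). Against untreated cells SLC7A11 was number 15 from the most negative of 13755 genes in 2# and number 69 in 1#, and against control RNA it was number 314 in 2# and 443 in 1#. Control RNA itself was 1.26-fold below untreated.

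SLC7A6, the arginine and neutral amino acid exchanger that shares the heavy chain, went the other way from SLC7A5. It gave 620.9 in 1# and 629.8 in 2#, against 437.0 with control RNA and 462.9 without treatment. The siRNA arrays were 1.01-fold apart, and both stood above the controls. The difference was 0.48 ± 0.0857 (SE, log2, limma adjusted p 0.0504). With adjusted p values this close to the threshold, SLC7A6 and SLC7A11 crossed it in some alternative settings. Both did with a common median, no filter or an intensity trend in the variance. In those settings 1581 of 13758, 590 of 18774 and 1007 of 13755 genes passed. SLC7A6 also did with the filter at percentile 75, where 927 of 9224 genes passed. The crossings are thus not particular to these genes. SLC7A6OS, named as the opposite-strand neighbour of SLC7A6 and added after its values were seen, had the reverse order, with 278.1 and 329.5 in 1# and 2# against 403.3 and 367.1 in control RNA and untreated cells.

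SLC7A1, the carrier of arginine and lysine, gave 1499 in 1# and 2025 in 2#, against 2171 with control RNA and 2652 without treatment. The groups were apart, but 2# lay only 1.07-fold below control RNA, less than the 1.22-fold between the control arrays. The difference was -0.46 ± 0.169 (SE, log2, limma adjusted p 0.132). It was -0.24 without 1# and -0.68 without 2#. Each of these values rests on 1 siRNA array, so no spread between siRNA arrays enters it.

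**Figure D2:**
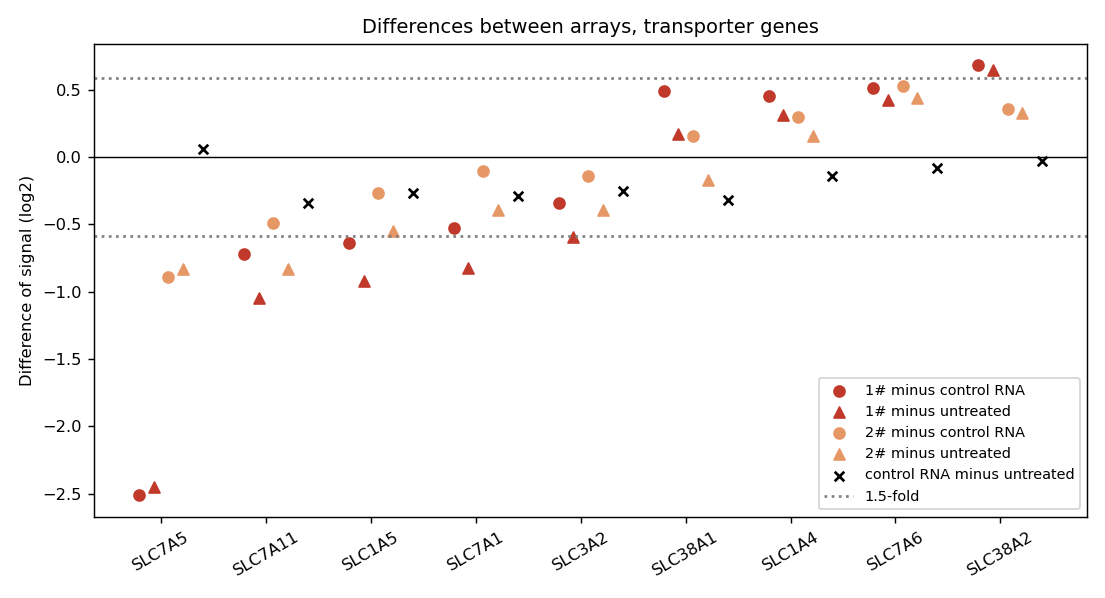
Log2 difference of signal for the 9 genes in the 4 pairs of a siRNA and a control array (circles against control RNA, triangles against untreated) and between the control arrays (crosses), with dotted lines at 1.5-fold. SLC7A5 stands at -2.51 and -2.45 in 1#, SLC7A6 and SLC38A2 are above 0 in all 4 pairs, and SLC38A1 lies on both sides of 0.

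The ASCT genes lay on opposite sides of the controls, a contrast between them that was not tested and in which neither passed the test. SLC1A5, an exchanger that carries glutamine, gave 845.3 in 1# and 1092 in 2#, against 1318 with control RNA and 1594 without treatment. Both siRNA arrays were lower, with 1# at 53% of untreated and 2# at 68.5%, and the difference was -0.59 ± 0.154 (SE, log2, limma adjusted p 0.0704). SLC1A4 gave 442.3 in 1# and 397.9 in 2#, against 323.8 with control RNA and 357.1 without treatment. Its siRNA arrays were higher, though 2# exceeded untreated by only 1.11-fold, about the 1.1-fold between the controls, and the difference was 0.30 ± 0.101 (SE, log2, limma adjusted p 0.111).

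The sodium-coupled SLC38 genes, which lie next to each other among protein-coding genes of chromosome 12, had higher signals in 1#. SLC38A2, a carrier known to increase when cells lack amino acids, gave 736.5 in 1# and 587.7 in 2#, against 458.9 with control RNA and 469.0 without treatment. Both siRNA arrays were above controls that lay 1.02-fold apart, and the difference was 0.50 ± 0.124 (SE, log2, limma adjusted p 0.0652). SLC38A1 gave 3060 in 1# and 2431 in 2#, against 2179 with control RNA and 2728 without treatment. Here 2# lay between the control arrays, so the groups overlapped. The difference was 0.16 ± 0.155 (SE, log2, limma adjusted p 0.544), with a 95% interval from -0.21 to 0.54.

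Of the 9 genes, 6 were lower in 1# than in 2#, as were 49.9% of all genes. At least 1.5-fold, 1 was lower (SLC7A5) and 0 higher, where 0.931% and 1.21% of all genes were. The signal of SLC7A5 in 1# chose it, so its place in the counts with 1# given here is a description. Against control RNA, 1# had 3 members at least 1.5-fold lower (SLC7A5, SLC7A11 and SLC1A5) and 1 higher (SLC38A2), where 5.57% and 7.44% of all genes passed. Against untreated cells it had 5 lower and 1 higher, where 4.6% and 5.93% of all genes passed. For 2# the counts were 1 lower and 0 higher against control RNA (1.02% and 1.87% of all genes) and 2 lower and 0 higher against untreated (0.683% and 1.12%). SLC7A5 and SLC7A11 were those 2. Whether dose, siRNA sequence or culture differed between 1# and 2# cannot be told apart from these labels.

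On group means, with 1 residual degree of freedom, no member was called against either control condition (limma, adjusted p of the 8 tested 0.252 to 0.491 against control RNA and 0.38 to 1 against untreated), and 0% of all genes were called in either, with 16.8% and 12.8% at an unadjusted p under 0.05. The comparison of control RNA with untreated cells sets 1 array against 1, with a spread taken from the siRNA pair on 1 residual degree of freedom, so a lack of calls says little about the transfection. It called 0% of all genes at an adjusted p under 0.05, with 0.473% at an unadjusted p under 0.05. Of the 9 genes, 8 were lower in control RNA, by 0.03 to 0.34 on the log2 scale, and SLC7A5 was 0.06 higher. Among all genes 51.9% were lower in control RNA. None of the 9 differed by 1.5-fold, as 0.0291% of all genes did on the lower and 0.0654% on the higher side. For SLC3A2, SLC7A11, SLC7A1, SLC1A5 and SLC38A1 this step between the controls was 0.25 to 0.34 in size, so their differences from untreated cells and from control RNA are not of the same size.

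The 5 genes nearest to SLC7A5 by Euclidean distance of mean-centred log2 signals over the 4 arrays were TAGLN (distance 0.17), TNFRSF12A (0.45), CCN1 (0.49), OLR1 (0.51) and CCN2 (0.70). TAGLN encodes an actin-binding protein, CCN1 and CCN2 encode matricellular proteins, TNFRSF12A encodes the TWEAK receptor and OLR1 a receptor of oxidized lipoprotein, so none of the 5 is a transporter. TAGLN had 297.5 in 1# and 1026 in 2#, against 1621 with control RNA and 1661 without treatment. The other 8 transporters lay farther away, from 1.37 for SLC7A11 to 2.58 for SLC38A2. This distance counts the size of a difference, and the 1# signal that chose SLC7A5 enters it. A gene without a like fall in 1# is therefore far from SLC7A5, and nothing is read from the distances. With 4 arrays the likeness of the 5 genes is a description only.

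**Figure D3:**
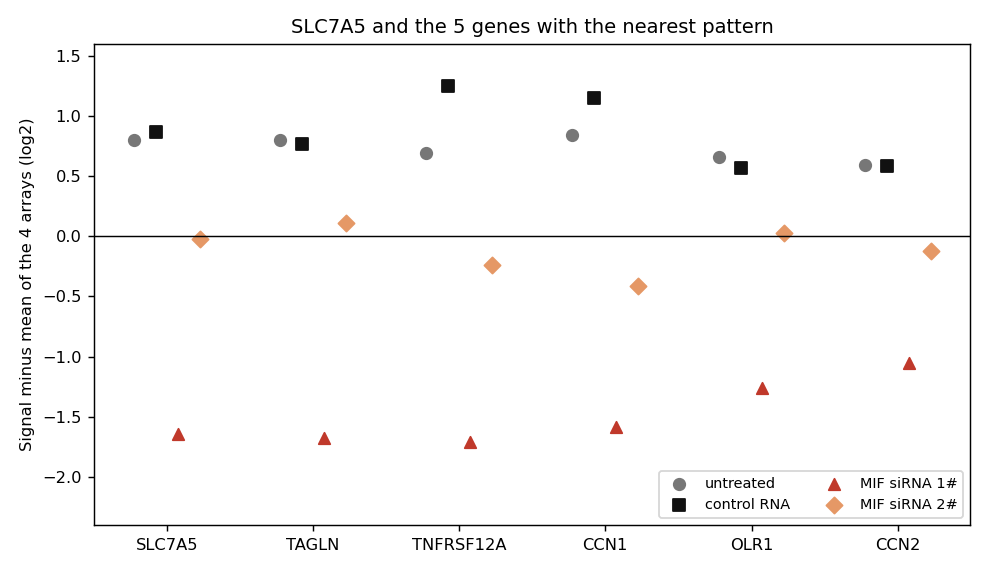
Log2 signal minus the mean of the 4 arrays for SLC7A5 and the 5 genes nearest to it, with 1 point per array. In each gene both control arrays are highest, 2# lies between and 1# is lowest; the distances to SLC7A5 run from 0.17 (TAGLN) to 0.70 (CCN2).

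Of 30 other plasma membrane amino acid transporters listed, 29 had a probe and 22 passed the filter. Among these 22, 4 were lower and 8 higher without overlap (28.7% and 32.6% of all genes), their median difference was 0.06 against 0.01 over all genes, and 0 were called. SLC6A15, a sodium-coupled carrier of branched-chain amino acids, stood furthest from the controls in this list, at 229.9 in 1# and 438.1 in 2# against 619.2 with control RNA and 724.0 without treatment (-1.08 ± 0.283, SE, log2, limma adjusted p 0.0716). As for SLC7A5, 1# was lowest and 2# lay between it and the controls. SLC43A2, which carries large neutral amino acids without a heavy chain, gave 148.3 and 156.5 in 1# and 2# against 202.2 and 214.6. SLC7A2, a carrier of arginine and lysine like SLC7A1, was higher, at 1368 and 1296 against 956.7 and 1084, while SLC7A1 was lower. The taurine carrier gene SLC6A6 gave 105.6 and 121.3 against 98.1 and 97.9. SLC6A9, a glycine carrier gene added after its values were seen, lay above the controls in 1# (240.7) and below them in 2# (139.3). Over all 232 other SLC genes that passed the filter, the median was 0.02, with 62 lower and 72 higher without overlap, 0 at least 1.5-fold apart in all 4 pairs and 0 called. After SLC6A15, the mitochondrial S-adenosylmethionine carrier SLC25A26 (291.1 and 398.9 in 1# and 2#, against 597.8 and 502.7), the haem transporter SLC48A1 (117.5 and 155.5, against 210.7 and 223.5) and SLC46A3, a lysosomal carrier that was higher (558.5 and 398.6, against 269.1 and 322.0), were furthest from the controls.

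**Figure D4:**
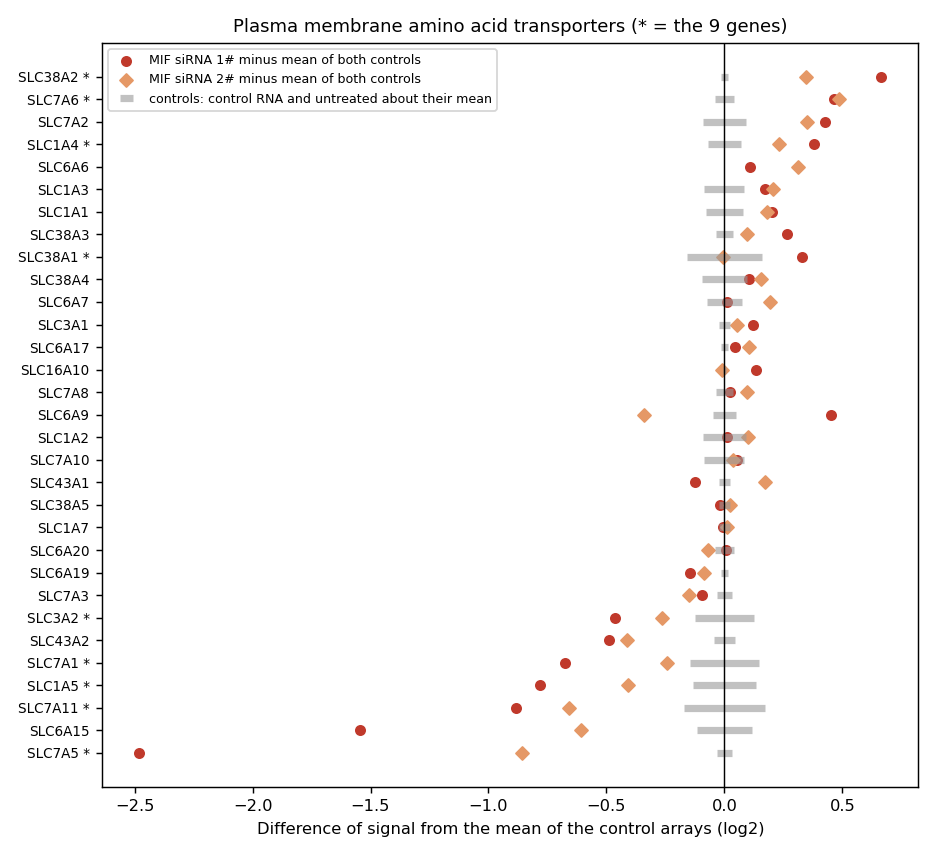
Log2 difference of each siRNA array from the mean of both control arrays for the 9 genes (starred) and the 22 other transporters that passed the filter; grey bars span the control arrays about their mean. SLC7A5 and SLC6A15 lie furthest to the left, and most other transporters lie near 0, with a median of 0.06 for the 22.

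Heavy chains other than SLC3A2 and further light chains gave low signals. SLC3A1, the heavy chain of kidney and gut, lay between 73.1 and 81.1 and SLC7A8, a light chain related to SLC7A5, between 152.9 and 166.8. The groups overlapped for SLC7A8, and SLC7A9 and SLC7A13 did not pass the filter.

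The amino acid response list holds targets and partners of ATF4 and the kinase EIF2AK4 that senses uncharged tRNA. Of 25 measured genes, 15 were lower and 3 higher without overlap, against 28.7% and 32.6% of all genes, and the median difference was -0.26 against 0.01 over all genes. None was called, and 0% of all genes were. In all 4 pairs 3 were at least 1.5-fold lower (ASNS, PSAT1 and MTHFD2), a rule met by 0.4% of all genes. ASNS, asparagine synthetase, gave 2394 and 2869 in 1# and 2# against 6084 with control RNA and 5872 without treatment. PSAT1, of serine synthesis, gave 1482 and 1570 against 3127 and 3195. The siRNA arrays lay close to each other for both genes, 1.20-fold apart for ASNS and 1.06-fold for PSAT1. PYCR1, of proline synthesis, gave 680.5 and 1067 against 1423 and 1379, whereas DDIT4, an inhibitor of mTORC1, was higher at 4088 and 2954 against 1997 and 2251. ATF4 itself gave 2630 and 2166 against 2941 and 2759 (-0.26 ± 0.117, SE, log2, limma adjusted p 0.206).

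**Figure D5:**
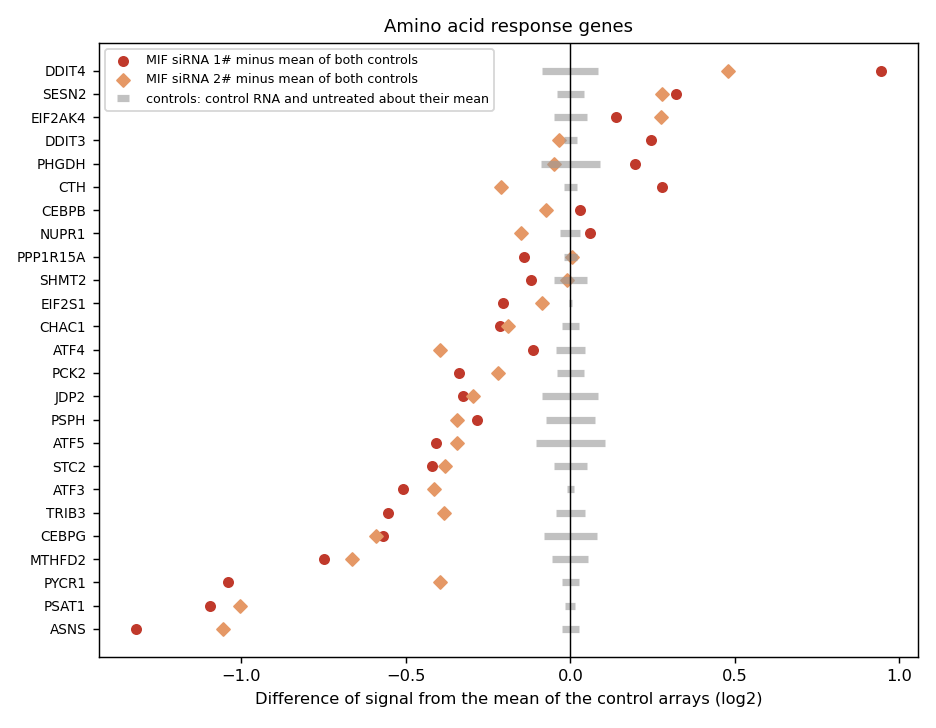
Log2 difference of each siRNA array from the mean of both control arrays for the 25 amino acid response genes that passed the filter, with grey bars spanning the control arrays about their mean. ASNS and PSAT1 lie furthest to the left with both siRNA arrays close together, and DDIT4 lies furthest to the right.

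Among genes of lysosomal amino acid transport and of mTORC1 amino acid sensing, 33 were measured, of which 15 were higher and 8 lower without overlap, against 32.6% and 28.7% of all genes, and the median difference was 0.11. TSC1, an inhibitor of mTORC1, gave 912.7 and 755.7 in 1# and 2# against 473.0 with control RNA and 571.9 without treatment. The Rag GTPase genes RRAGB and RRAGD gave 1582 and 1158 against 876.2 and 904.0, and 2182 and 2392 against 1525 and 1611. FNIP1, a partner of folliculin, gave 1025 and 763.0 against 546.1 and 661.5. None of the 33 was called.

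Of 12 enzymes of glutathione, glutamine and branched-chain amino acids, 2 were lower and 3 higher without overlap (28.7% and 32.6% of all genes), with a median of -0.04. BCAT1, the cytosolic transaminase of leucine and related amino acids, gave 686.3 and 816.9 against 1142 with control RNA and 1299 without treatment (-0.70 ± 0.121, SE, log2, limma adjusted p 0.0501). GLUL, which makes glutamine, was higher at 174.1 and 157.6 against 112.8 and 121.4. GCLM, of glutathione synthesis, gave 1089 and 1096 against 1229 and 1287, and for TXNRD1, a thioredoxin reductase, the groups overlapped.

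Among 11 measured genes reported to regulate these transporters, 5 were lower and 2 higher without overlap (28.7% and 32.6% of all genes), with 0 called and a median of 0.10. MYC gave 263.1 and 385.2 in 1# and 2# against 520.0 with control RNA and 438.7 without treatment (-0.59 ± 0.189, SE, log2, limma adjusted p 0.105). EPAS1, a hypoxia-inducible factor, was higher at 1960 and 1603 against 1105 and 1168, and MYCN gave 120.1 and 91.3 against 85.6 and 83.7. The housekeeping list had a median of 0.02 over 8 measured genes.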

How the data were processed

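The sample tables hold 1 linear intensity per probe as the authors deposited it; BeadStudio made it, per the submitters' processing notes, which state no version or normalization. The lowest intensity was 39.8 and array medians differed. From row 19832 the series value table, which the authors also deposited, carries identifiers 1 row off the sample tables. Over those rows the 36 ribosomal protein probes had a median intensity of 5657 under the sample tables' identifiers and 115.8 under the other, so the table was matched by position and used as an alternative; this bears on SLC7A6 and SLC38A1. It held 0 columns of other samples.

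Of 48701 probes, 23687 had 1 gene in the platform annotation, 35 had more than 1, and 24979 without an entry are unnamed here. Symbols were updated by gene identifier to GRCh38.p14 (23651 matched). Intensities were quantile-normalized and log2 was taken, the brightest probe stood for a gene, and genes above the median of all probes were kept. limma 3.58.1 in R 4.3.3 (lmFit, eBayes, two-sided) tested 2 arrays against 2, with 2 residual degrees of freedom and the difference between the controls counted as spread, and 3 group means with 1. The lone control arrays were there assumed to vary like the siRNA pair. The number of arrays limits the precision. The steps were tested on simulated data.

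Members, lists, tests and naming rules were chosen with earlier results of these data known. Named were all 9 members, MIF, up to 4 genes of each list by size of difference, the 5 genes nearest to SLC7A5 (placeholder names passed over), and a few added after their values were seen. The other alternatives were scaling to a common median, normexp correction with offset 50, no filter or one at percentile 75, averaging a gene's probes, a variance trend with intensity, and leaving out arrays. Promoter sequences are from RefSeq, GRCh38.p14. Not every matching promoter stretch is reported here.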

Additional observations from a re-analysis of the deposited data

How the results depend on the processing

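The 9 differences from both control arrays were recomputed in 98 combinations of gene and alternative. Of these, 76 kept direction and, save for those of SLC7A5, which was not tested, side of the threshold, 20 kept direction and passed an adjusted p of 0.05 in limma, and 2 turned, both for SLC38A1, whose difference was 0.00 without 1# and 0.00 without control RNA (0.33 without 2#). SLC7A5 ranged from -2.48 without 2# to -0.86 without 1#, so 1# carries most of its mean. With arrays brought to a common median, SLC7A11 (-0.69, adjusted p 0.0365), SLC7A6 (0.66, 0.035), SLC1A4 (0.50, 0.0455) and SLC38A2 (0.69, 0.0405) passed. That scaling moved the median of all genes to 0.09, and 1581 of 13758 genes passed with it, 86.3% of them higher. The count of 8 members without overlap between the groups was 7 to 9 in every alternative run, and 7 only where the stricter filter left out SLC7A11. In the reported setting 61.4% of all genes were without overlap. Leaving out an array leaves fewer pairs that must agree, so nothing about the members is read from that count.

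For MIF siRNA against both control arrays, limma called 0 genes as reported. It called 1581 (86.3% higher) with a common median, 590 with no filter, 927 with the stricter filter and 1007 with an intensity trend, and 1542 without 1# and 4624 without 2#, where the lone siRNA array is assumed to vary like the control pair; leaving out either control array gave 0 (1764 or 2308 at an unadjusted p under 0.05). On group means the trend called 76 genes against control RNA and 22 against untreated cells, and other settings 0. Genes at least 1.5-fold apart in all 4 pairs numbered 157 (65% higher), 262 with a common median (90.8% higher), 178 without 1# and 1243 without 2#, 13 at 2-fold and 8440 at any size. The cause of these changes was not tested. Group means could not be fitted with a test once a siRNA array was left out. No paired analysis was possible because the control arrays carry no replicate number and each control condition has 1 array. Signals near the median of all probes, as for SLC7A11 in 1#, limit how large a difference can appear.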
